A study of Mus musculus with 2 samples.

Results

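The control library of this series held 80 cells with at least 1 unique molecular identifier (UMI, the tag that counts each captured mRNA once) of Fcer1g, Tyrobp, Klre1 or Gzmc, out of 3127 control cells and 5673 cells in both libraries. Cells entered with at least 500 genes detected and under 10% of UMIs from mitochondrial (mt-) genes, and the 80 are called member cells below. The cells were chosen by the UMI counts of these 4 genes, so their own levels are a description and carry no support for anything else. Of the 80 member cells, 64 had UMIs of 1 of the 4 genes and 16 had UMIs of 2 or more, so the 16 are given apart. Each member cell was set beside 5 control cells with 0 UMIs of the 4 genes and the nearest total UMI count (400 matched cells, 80 for the 16).

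The series compares CD8 T cells of OT-I mice, whose transgenic T cell receptor sees the ovalbumin peptide SIINFEKL, kept for 20 h under transient glucose restriction (TGR, 1 mM glucose) or under control conditions (11 mM glucose). Both libraries came from mice of 8 to 12 weeks, from spleen per the sample labels and from spleen and lymph nodes per the protocol. Both cultures were started with the peptide for 48 h and carried 100 U/ml interleukin-2. The sample descriptions name 3 days of growth before the exposure. There was 1 library per condition, so no test over samples exists. Cells of 1 library are not replicates: intervals are 95% counting intervals (exact Poisson for UMIs, exact binomial for shares of cells), which cover counting error only, and no p-value is given.

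Fcer1g and Tyrobp encode small membrane adaptors with cytoplasmic activation motifs (the Fc receptor gamma chain and DAP12) that pair with receptors lacking signalling domains of their own, on natural killer (NK) cells, mast cells and myeloid cells. Klre1 encodes a C-type lectin-like receptor of mouse NK cells, and Gzmc a granule serine protease that mouse lymphocytes make after strong stimulation. Conventional CD8 T cells instead signal through CD3 chains and carry the CD8 alpha and beta coreceptor chains, and CD8 T cells grown in interleukin-2 or interleukin-15 can take up NK receptors and their adaptors.

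The 4 genes lie on separate chromosomes (GRCm38 coordinates from GENCODE M21): Fcer1g at chr1:171229572-171234365 on the minus strand, Tyrobp at chr7:30413760-30417585 on the plus strand, Klre1 at chr6:129577905-129585827 on the plus strand and Gzmc at chr14:56231441-56234656 on the minus strand. Klre1 ends 5954 bases before Klrd1 in the NK receptor cluster, and Tyrobp ends 126 bases from Hcst, the gene of a further adaptor, on the other strand. The promoters of Fcer1g and Gzmc are shown because these genes had the most UMIs in the member cells, and that of Cd8a because it was the coreceptor gene furthest below the matched cells. Each runs from 250 bases before to 50 bases after the start (RefSeq, GRCm38.p6), at chr1:171234300-171234599 (minus strand), chr14:56234608-56234907 (minus strand) and chr6:71373177-71373476 (plus strand). Capitals mark the letters TGTGGT, the core read by RUNX factors, and GAGGAA, a form read by ETS factors, on either strand.
Fcer1g: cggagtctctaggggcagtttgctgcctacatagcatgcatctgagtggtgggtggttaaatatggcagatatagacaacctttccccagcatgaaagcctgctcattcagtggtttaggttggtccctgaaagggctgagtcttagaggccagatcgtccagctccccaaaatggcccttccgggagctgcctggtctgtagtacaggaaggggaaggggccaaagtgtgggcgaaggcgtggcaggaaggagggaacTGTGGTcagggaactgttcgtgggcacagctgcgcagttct
Gzmc: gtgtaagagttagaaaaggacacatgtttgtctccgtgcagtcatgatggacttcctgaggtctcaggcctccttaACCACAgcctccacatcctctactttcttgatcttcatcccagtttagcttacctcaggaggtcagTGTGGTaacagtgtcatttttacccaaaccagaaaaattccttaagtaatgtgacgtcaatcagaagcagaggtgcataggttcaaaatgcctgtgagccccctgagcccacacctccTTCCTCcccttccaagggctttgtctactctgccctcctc
Cd8a: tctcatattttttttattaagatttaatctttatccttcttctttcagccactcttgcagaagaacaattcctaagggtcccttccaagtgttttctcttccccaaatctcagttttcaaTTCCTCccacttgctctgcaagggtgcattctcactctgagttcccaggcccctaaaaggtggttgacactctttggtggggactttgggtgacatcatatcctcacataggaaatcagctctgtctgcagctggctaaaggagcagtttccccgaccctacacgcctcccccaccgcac
The letters TGTGGT stood once in the Fcer1g window and 2 times in the Gzmc window, GAGGAA once each in the Gzmc and Cd8a windows, and no 2 of the marked matches overlapped. Of 27025 promoters of the same length, 16.9% held TGTGGT and 28.3% held GAGGAA. The STAT letters TTCNNNGAA, held by 8.47% of promoters, were in none of these 3 windows. A match of letters is a description of the sequence, not a site. Tyrobp had no entry in the promoter table.

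Of the 4 genes, Klre1 was in most cells and Fcer1g gave most UMIs. Klre1 was detected in 40 of 3127 control cells with 44 UMIs, and 36 of those cells had 1 UMI. Fcer1g was detected in 33 cells with 107 UMIs, up to 11 in a cell, and 22 of the cells had 2 or more. Gzmc was detected in 17 cells with 48 UMIs, up to 11 in a cell, and Tyrobp in 14 cells with 33 UMIs, up to 6 in a cell. Gzmc belongs to a cluster of near-identical granzyme genes (Gzmd, Gzme, Gzmf, Gzmg and Gzmn), so reads of its copies could have been split or dropped in counting. Over the 80 cells, 52 had exactly 1 UMI in sum, just inside the rule, 4 had 2 and 24 had 3 or more, and the 400 matched cells just outside it had 0.

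The genes of the rule met in the same cells. Fcer1g and Tyrobp stood together most often: 10 of the 14 Tyrobp cells had an Fcer1g UMI (71.4%, interval 41.9 to 91.6%), against 23 of the 3113 control cells without Tyrobp (0.739%, 0.469 to 1.11%). Of the 17 Gzmc cells, 7 had Fcer1g (41.2%), against 26 of 3110 cells without Gzmc (0.836%). Klre1 met Fcer1g in 6 of 40 Klre1 cells (15%), against 27 of 3087 cells without Klre1 (0.875%). Cells with a gene were deeper than cells without it, with a median of 5842.5 UMIs for Tyrobp cells against 4028 UMIs for the other cells. The co-detection at a fixed depth was not computed.

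**Figure D1:**
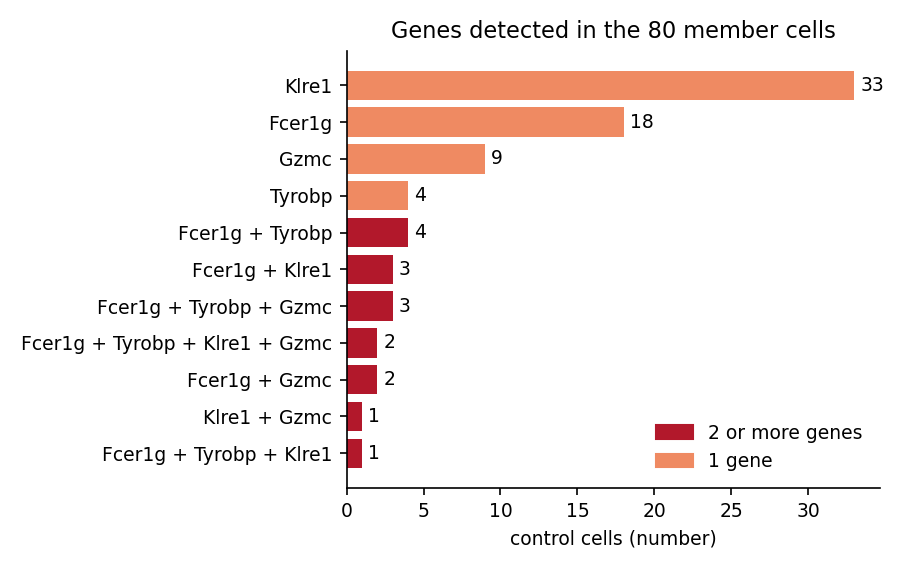
Number of control cells (horizontal axis) for each combination of the 4 genes detected in the 80 member cells. Light bars are cells with 1 gene and dark bars cells with 2 or more; Klre1 as the only gene makes up 33 cells, and Fcer1g is in 15 of the 16 cells with 2 or more genes.

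Detection depended on depth. In 4 groups of about equal size by UMI count, from shallow to deep, 10, 15, 24 and 31 cells were members (1.28%, 1.92%, 3.07% and 3.96%). Member cells had a median of 4966 UMIs, and the matched cells had 4966, against 4013 in all 3047 control cells without the genes. No cell class that should lack the genes was large enough to set a background of free RNA: 5 kept control cells had a UMI of Cd79a, a B cell gene, at a median of 2235 UMIs, and 0 of the 5 had one of the 4 genes. Doublets were not called, and 5 of the 80 member cells were among the 2% of control cells with the most UMIs.

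In TGR, 74 of 2546 cells met the same rule (2.91%, 2.29 to 3.64%), against 80 of 3127 control cells (2.56%, 2.03 to 3.17%). TGR cells were deeper, with a median of 6265.5 UMIs against 4030 in control cells. Thinned to 1500 UMIs per cell, 22 of 2546 TGR cells met the rule (0.864%, 0.542 to 1.30%), against 43 of 3036 control cells (1.42%, 1.03 to 1.90%), and 91 shallower control cells were left out. The intervals of the 2 libraries overlapped both before and after thinning, so no order is read from these shares. As a sum, the 4 genes had 9.70 CPM (UMIs scaled to a total of 1000000) in TGR cells and 15.8 CPM in control cells. Cells with 2 or more of the genes were 8 of 2546 in TGR (0.314%) and 16 of 3127 in control (0.512%), and after thinning 1 and 8.

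CD8 UMIs were missing from more of the member cells than of the matched cells, while nearly all cells of both sets had CD3 UMIs. Among the 80 member cells, 23 had no UMI of Cd8a or Cd8b1, which encode the 2 CD8 chains (28.8%, 19.2 to 39.95%), against 23 of 400 matched cells (5.75%). Among the 16 cells with 2 or more of the genes, 8 had none (50%, 24.7 to 75.3%), against 4 of their 80 matched cells (5.00%). In contrast, 3 of the 80 member cells had no UMI of Cd3d, Cd3e or Cd3g (3.75%, 0.781 to 10.6%), against 4 of 400 matched cells (1.00%). No CD3-free cell was among the 16 (0 of 16, exact interval up to 20.6%), against 1 of 80 matched cells. Read the other way, 23 of the 295 control cells without a CD8 UMI had one of the 4 genes (7.80%, 5.01 to 11.5%), against 57 of the 2832 with a CD8 UMI (2.01%, 1.53 to 2.60%), although the CD8-free cells were shallower (median 2957 against 4183 UMIs).

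As levels, Cd8a had 219 CPM in member cells and 382 CPM in matched cells (log2 ratio -0.80, fold interval 0.464 to 0.703). Cd8b1 had 320 and 486 CPM in the same order of cells (log2 ratio -0.60, fold interval 0.553 to 0.781). Lat, the scaffold that links the T cell receptor to its downstream enzymes, had 426 CPM in member cells and 650 CPM in matched cells (log2 ratio -0.61). The CD3 chains stayed within 1.5-fold: Cd3d had 676 CPM in member cells and 649 CPM in matched cells, and Cd3e had 118 CPM in both. Cd3g had 495 CPM in member cells and 575 CPM in matched cells (log2 ratio -0.22), and Thy1, a surface marker of mouse T cells, had 767 and 899 CPM.

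A gene is counted past the fold where it had at least 25 CPM in either set, a ratio of at least 1.5 in either direction and a counting interval apart from 1. Of 4111 genes scored, 122 were higher in member cells (2.97%) and 91 were lower (2.21%), a split of 57.3% higher that became 44.1% with edgeR's TMM scaling and 47.7% with DESeq2's size factors. With 1 matched cell for each member cell, 87 were higher and 136 lower (39.0% higher), and 60 of the 122 and 48 of the 91 genes were called again in the same direction. Of the 19 scored members of the T cell receptor and CD8 list, 0 were higher and 3 were lower (Cd8a, Cd8b1 and Lat), and the list's median log2 ratio was -0.11, against 0.01 over all genes scored.

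The 16 cells with 2 or more genes stood further from their matched cells. Cd8a had 5 UMIs in the 16 cells, in 3 of them, against 192 UMIs in the 80 matched cells (52.6 CPM against 404 CPM, log2 ratio -2.90). Cd8b1 had 13 UMIs, in 7 cells, against 234 UMIs in matched cells (137 CPM against 493 CPM, log2 ratio -1.84). Cd3d had 65 UMIs, and all 16 cells had one, against 320 UMIs in matched cells (683 CPM against 674 CPM, log2 ratio 0.02). Lat had 263 CPM in the 16 cells and 723 CPM in matched cells (log2 ratio -1.45), and the costimulatory receptor Cd27 had 2 UMIs against 60 (log2 ratio -2.49). In the 16 cells, 5 of 18 scored genes of the T cell receptor and CD8 list were lower and 0 higher, where 93 of 4516 genes scored were lower (2.06%) and 205 higher (4.54%).

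**Figure D2:**
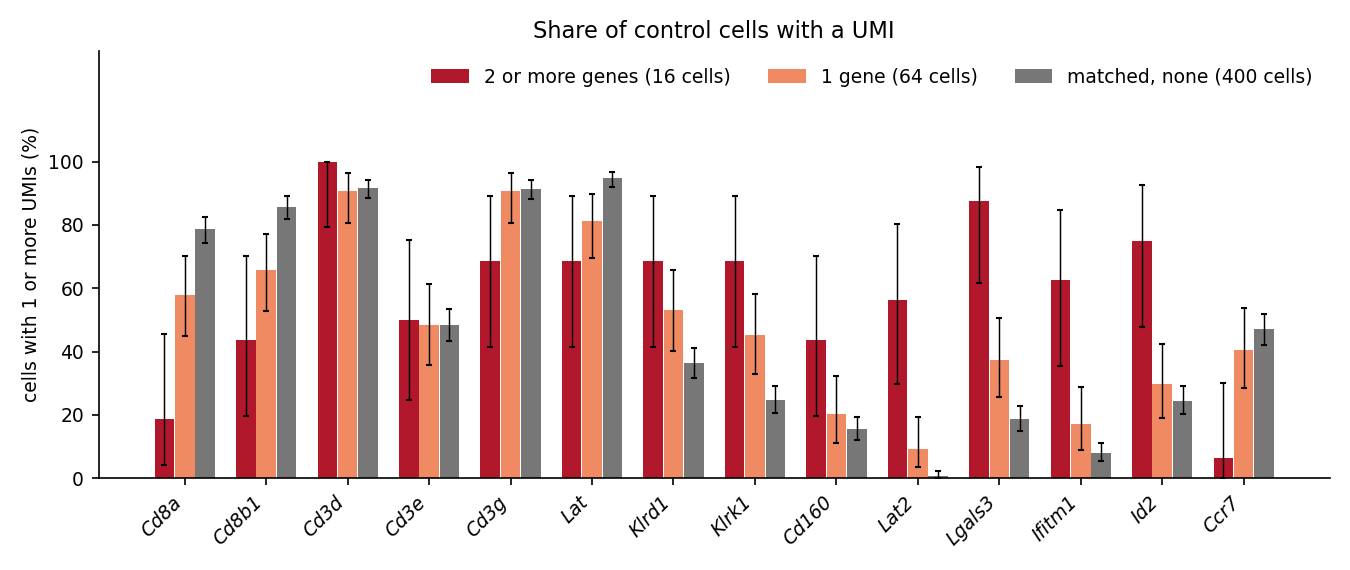
Share of control cells with at least 1 UMI (vertical axis, %) of genes of the CD8 coreceptor, CD3, T cell receptor signalling, NK receptors and other groups. Bars are the 16 member cells with 2 or more of the 4 genes, the 64 with 1 gene and the 400 matched cells, with exact binomial 95% intervals; a Cd8a UMI is in 3 of 16 cells with 2 or more genes, and a Cd3d UMI in 16 of 16.

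How many UMIs of the 4 genes a member cell had went with its CD8 level. The 28 member cells with 2 or more UMIs in sum had 26 UMIs of Cd8a and Cd8b1 together, from 0 to 6 per cell with a median of 0. The 52 with 1 UMI had 230, from 0 to 13 with a median of 4, and the 400 matched cells had 2049, from 0 to 19 with a median of 4. The CD3 chains had a median of 7 UMIs per cell in all 3 sets. No CD8 UMI was found in 17 of the 28 cells (60.7%, 40.6 to 78.5%), against 8 of their 140 matched cells (5.71%). Among the 52 cells it was missing in 6 (11.5%, 4.35 to 23.4%), against 16 of their 260 matched cells (6.15%).

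**Figure D3:**
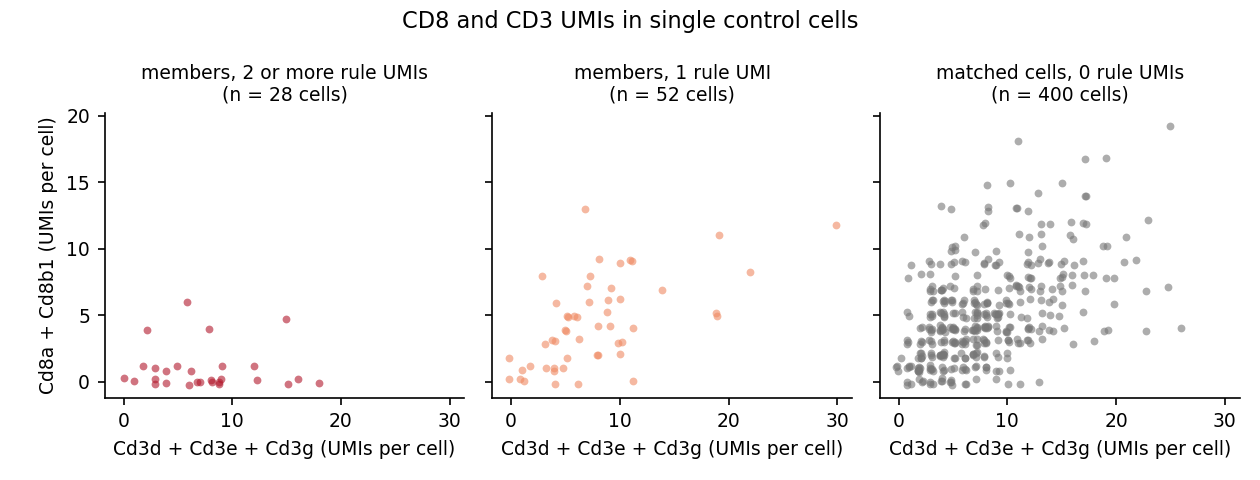
Summed UMIs of Cd8a and Cd8b1 (vertical axis) and of Cd3d, Cd3e and Cd3g (horizontal axis) in single control cells, 1 point per cell with a small random offset. Panels are the 28 member cells with 2 or more UMIs of the 4 genes, the 52 with 1 UMI and the 400 matched cells with 0; the 28 lie at 0 to 6 CD8 UMIs with CD3 UMIs up to 18.

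The genes given next for this division were chosen after values were seen. Cd8a was at 58.0 CPM in the 28 cells against 393 CPM in their matched cells (log2 ratio -2.74), and at 298 CPM in the 52 cells against 365 CPM in theirs (log2 ratio -0.29). Lgals3, which encodes the lectin galectin-3, was at 625 CPM in the 28 cells against 47.7 CPM (log2 ratio 3.68), and at 106 CPM in the 52 cells against 49.2 CPM (log2 ratio 1.11). Gzmb, the granule protease granzyme B, was at 1726 CPM in the 28 cells against 774 CPM (log2 ratio 1.16), and at 971 CPM in the 52 cells against 886 CPM (log2 ratio 0.13). Id2, a transcriptional regulator needed by innate lymphocytes, was at 264 CPM in the 28 cells against 47.7 CPM (log2 ratio 2.44), and at 59.5 CPM in the 52 cells against 58.0 CPM (log2 ratio 0.04). The difference between the 28 and the 52 cells was not tested. Of the cytotoxic granule list, 9 of 15 scored genes were higher in the 28 cells, where 4.90% of all genes scored were higher, and 0 of 10 in the 52 cells, where 2.31% were. No granule gene was lower in the 28 or the 52 cells, where 2.73% and 2.17% of all genes scored were lower. Genes could be scored through the member cells alone, so these granule counts are a description. How many reached 25 CPM in matched cells is not given for this division.

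**Figure D4:**
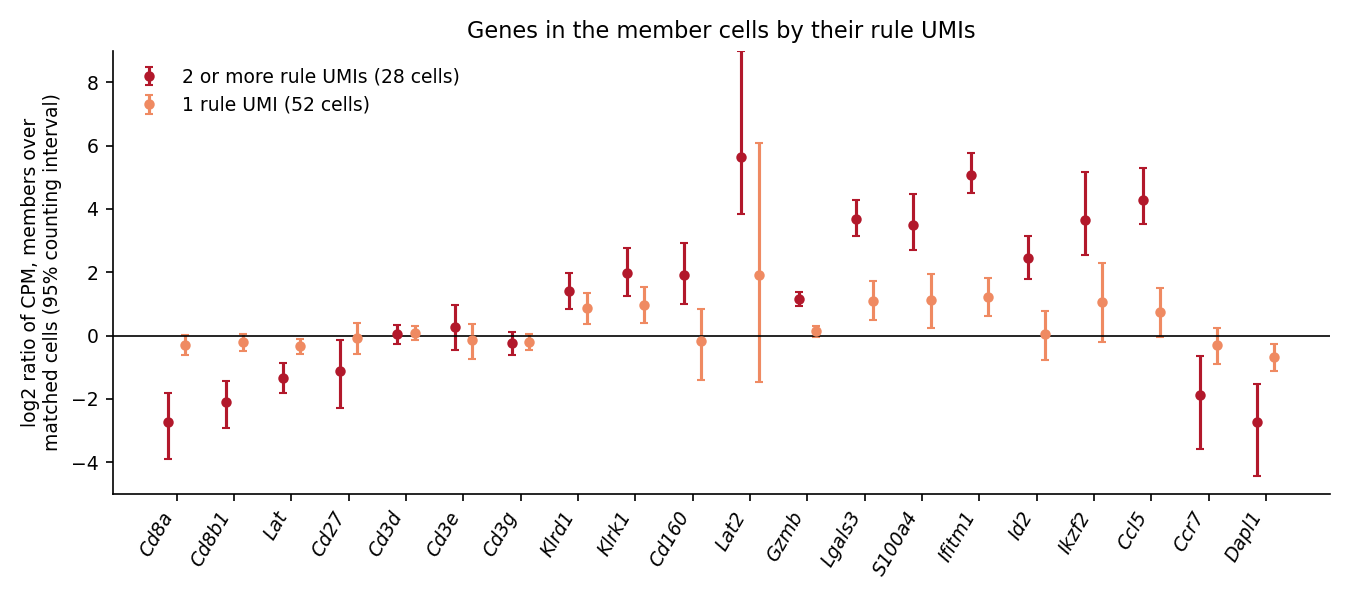
Log2 ratio of CPM (vertical axis) of 20 genes in control member cells over their matched cells, with 95% counting intervals. Dark points are the 28 member cells with 2 or more UMIs of the 4 genes and light points the 52 with 1 UMI, and the upper interval of Lat2 in the 28 cells runs beyond the axis; the CD3 chains lie near 0 in both sets, and Cd8a lies at -2.74 in the 28 cells and -0.29 in the 52.

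Of the NK receptors, 4 were abundant enough to score. Klrd1, which encodes CD94, the partner chain of NKG2 receptors, had 194 CPM in member cells and 93.2 CPM in matched cells (log2 ratio 1.05). Klrk1, which encodes the activating receptor NKG2D, had 141 CPM in member cells and 56.3 CPM in matched cells (log2 ratio 1.32). Cd160 and Slamf7, receptors shared by NK cells and activated T cells, had log2 ratios of 0.85 and 1.12. These were 4 of 4 scored genes of a list of 39 NK receptor genes, where 2.97% of all genes scored were higher, and 24 of the list had a UMI in either set, so the other 20 were too rare to score. Slamf7 was scored through member cells alone (25.3 CPM, against 11.4 CPM in matched cells), so the count is a description. Slamf7, at 12 UMIs in member cells against 27 in matched cells, was not past the fold under 8 of the 12 alternatives. In the 52 cells with 1 UMI, Klrd1 (160 CPM against 87.6 CPM in matched cells) and Klrk1 (119 CPM against 60.5 CPM) were past the fold, although Cd8a was not.

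The rarer NK receptors gave few UMIs, in few cells. Klra1, Klra4 and Klra6, of the Ly49 family of receptors for class I molecules, had 4 UMIs each in the 80 member cells. They had 0 in the 400 matched cells, a ratio of 6.63 against a floor of 3 UMIs, with a counting interval from 3.28 upward. These UMIs were in 3, 2 and 4 member cells, and 3 of the Klra4 UMIs were in 1 cell. Klra7 had 6 UMIs in 3 member cells, up to 4 in 1 cell, and 1 UMI in matched cells. Cd244, a receptor of the SLAM family, had 7 UMIs in 7 member cells and 2 in matched cells. Klrc1 and Klrc2, the NKG2A and NKG2C chains that pair with CD94, had 5 and 6 UMIs in member cells against 3 and 4 in matched cells. Up to 3 of the Klrc2 UMIs were in 1 member cell. Not all rare genes of the list ran this way. Cd226 had 7 UMIs in member cells against 51 in matched cells (log2 ratio -0.54), and Crtam had 2 against 16 (log2 ratio -0.64). Lilrb4a had 1 against 6 (log2 ratio -0.23), and Havcr2 and Klra5 had 0 against 1 each. The Klra and Klrc genes are near-copies of each other, so reads could have been split among them. Ncr1, which encodes the NK cell receptor NKp46, had 0 UMIs in the 80 member cells, and Klrb1c, the NK1.1 antigen gene, had 1.

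Among receptor adaptors, Lat2, a Lat-like scaffold of B cells, mast cells and NK cells, had 20 UMIs in 15 member cells and 3 UMIs in 3 matched cells (ratio 26.2, fold interval 9.83 to 174). In the 16 cells with 2 or more genes, Lat2 had 14 UMIs in 9 cells and 0 UMIs in matched cells. Against a floor of 3 UMIs in matched cells the ratio was 23.3. Sh2d1a, the adaptor SAP of SLAM receptors, had 105 CPM in member cells and 45.7 CPM in matched cells (log2 ratio 1.20). Hcst, which encodes DAP10, the adaptor that NKG2D uses, was within 1.5-fold at 103 CPM in member cells and 97.0 CPM in matched cells. Of 10 scored adaptor and kinase genes, 2 were higher (Lat2 and Sh2d1a) and 2 lower (Fyn and Ptpn6), where 2.97% of all genes scored were higher and 2.21% lower. Lat2 was scored through member cells alone.

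Granule genes were higher in part. Gzma, the granule protease granzyme A, had 43 UMIs in 7 member cells against 14 UMIs in 10 matched cells (90.6 CPM against 5.93 CPM, log2 ratio 3.86), and up to 15 of the 43 were in 1 cell. Serpinb6b and Serpinb9, inhibitors of granule proteases, had log2 ratios of 1.97 and 1.60, and Ctsd, a lysosomal protease, 1.04. These 4 of 12 scored granule genes were higher and 0 lower, where 2.97% of all genes scored were higher and 2.21% lower. Gzma, Serpinb9 and Serpinb6b reached 25 CPM in member cells alone, and of the 8 granule genes that reached it in matched cells 1 was higher (Ctsd). Gzmb had 1218 CPM in member cells and 835 CPM in matched cells (log2 ratio 0.54), short of 1.5-fold, and Nkg7, a granule membrane protein, 1113 and 859 CPM. In the 16 cells with 2 or more genes, Gzmb had 1787 CPM against 708 CPM in matched cells (log2 ratio 1.33) and Nkg7 had 1546 CPM against 815 CPM (log2 ratio 0.92). There, 6 of 12 scored granule genes were higher and 0 lower, where 4.54% of all genes scored were higher and 2.06% lower. Of the 8 of these that reached 25 CPM in matched cells, 3 were higher (Gzmb, Nkg7 and Ctsd).

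Other genes with the largest ratios in the 80 cells were of varied roles. Ifitm1, an interferon-induced membrane protein, had 216 UMIs in 21 member cells against 103 UMIs in 32 matched cells (455 CPM against 43.6 CPM, log2 ratio 3.37), with up to 44 UMIs in 1 member cell. Lgals3 had 131 UMIs in 38 member cells against 117 UMIs in 75 matched cells (log2 ratio 2.47). Ikzf2, which encodes the transcription factor Helios, had 31 UMIs in 18 member cells against 28 in 24 matched cells (log2 ratio 2.43). S100a4, a calcium-binding protein of motile and memory cells, had a log2 ratio of 2.40. It reached 25 CPM in member cells alone (122 CPM, against 22.9 CPM in matched cells). Ccl5, a chemokine of memory and cytotoxic cells, had 82 UMIs in member cells against 81 in matched cells (log2 ratio 2.32), and 35 of the 82 were in 1 cell.

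The remaining genes of the highest 12 were Serpinb6b, Glipr1, the metallothionein Mt2, Ifitm2, Klrk1 and Zbtb32, a transcriptional repressor of activated lymphocytes, with log2 ratios from 1.23 to 1.97. Glipr1 reached 25 CPM in member cells alone (82.2 CPM, against 24.1 CPM in matched cells). Of the effector and innate lineage factors, Eomes, Id2, Nfil3 and Ikzf2 were higher, 4 of 10 scored with 0 lower, where 2.97% of all genes scored were higher. Eomes, Nfil3 and Ikzf2 reached 25 CPM in member cells alone, and Id2 was 1 of 7 that reached it in matched cells. Ccr2, a chemokine receptor that serves entry into inflamed tissue, was higher with a log2 ratio of 2.48. It reached 25 CPM in member cells alone (46.4 CPM, against 8.05 CPM in matched cells). Of the 7 chemokine receptor and integrin genes that reached it in matched cells, 0 were higher.

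Of 15 scored naive and memory genes, 5 were lower (Ccr7, Tcf7, Lef1, Klf2 and Dapl1), where 2.21% of all genes scored were. Cd44, which reached 25 CPM in member cells alone, was higher, and 9 genes were not past the fold. Ccr7, the lymph node homing receptor, had 78.0 CPM in member cells and 125 CPM in matched cells (log2 ratio -0.67). Tcf7 encodes TCF-1, a factor of naive and memory T cells, and had 86.4 CPM in member cells and 154 CPM in matched cells (log2 ratio -0.83). Dapl1, a gene of quiescent T cells, had 116 CPM in member cells and 239 CPM in matched cells (log2 ratio -1.04).

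The 12 lowest genes ran from -1.11 for Klf2, a factor that maintains quiescence, to -0.87 for Lbh. Il21r, the interleukin-21 receptor, Ganab, Ikbkb, Dapl1, Ptpn6, Lef1, Inpp4b, Acly, Mtch1 and Ankrd13a lay between. Apart from Dapl1, these genes had 12 to 24 UMIs in the member cells, so their intervals were wide. In the 16 cells with 2 or more genes, Ccr7 had 1 UMI against 58 in matched cells, and Dapl1 had 1 against 114. There, 6 of 17 scored naive and memory genes were lower and 1 higher (Ly6c2), where 2.06% of all genes scored were lower and 4.54% higher.

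Beside the 2.97% of genes higher and 2.21% lower in the 80 cells, and 4.54% and 2.06% in the 16, counts in the metabolic and cell cycle lists were small and nothing is read from the zeros. Glycolysis genes had 0 of 15 scored past the fold in the 80 cells and 0 of 17 in the 16 cells, with Gapdh at 1772 CPM in member cells and 1784 CPM in matched cells. In the G2/M list, 1 of 27 scored genes (Kif23) was lower in the 80 cells (list median -0.14). In the 16 cells 4 of 27 were lower (Top2a, Cenpf, Ccna2 and Birc5; list median -0.55 against 0.04 over all genes scored). Of 20 scored genes of MYC and ribosome biogenesis, 3 were lower in the 80 cells (Myc, Nop58 and Gnl3) and 0 higher, and 0 were past the fold in the 16. MHC class I presentation genes had 0 of 16 scored past the fold in both sets.

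The interferon-induced genes split in the 16 cells. Ifitm1 had 148 UMIs in 10 of the 16 cells against 18 UMIs in 6 of 80 matched cells (1556 CPM against 37.9 CPM, log2 ratio 5.30), and Ifitm2 had 252 CPM against 33.7 CPM. Ifi27l2a had 168 CPM in the 16 cells and 828 CPM in matched cells (log2 ratio -2.29), and Zbp1, a nucleic acid sensor, had 0 UMIs against 36. Of 14 scored genes of that list, 3 were higher (Irf7, Ifitm1 and Ifitm2) and 6 lower, where 4.54% of all genes scored were higher and 2.06% lower. Irf7 reached 25 CPM in the 16 cells alone. Of the 13 that reached it in matched cells, 2 were higher (Ifitm1 and Ifitm2) and 6 lower.

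Cells are next given by the gene of the rule they held, which went together with the number of its UMIs: the 33 cells with Klre1 as the only gene had 34 UMIs of it, and the 18 with Fcer1g as the only gene had 51. Differences between these sets were not tested. Cd8b1 had 398 CPM in the 33 Klre1 cells and 460 CPM in matched cells (log2 ratio -0.21), and 6 of the 33 had no CD8 UMI (18.2%, 6.98 to 35.5%), against 11 of 165 (6.67%). Klrd1, the neighbour of Klre1, had 194 CPM in the 33 cells and 98.1 CPM in matched cells (log2 ratio 0.98), and Klrk1 had 121 CPM against 61.8 CPM. Ccl5 had 233 CPM in the 33 cells and 39.2 CPM in matched cells, of which the cell with 35 UMIs held most.

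In the 18 cells with Fcer1g as the only gene, no CD8 UMI was found in 7 (38.9%, 17.3 to 64.2%), against 3 of 90 matched cells (3.33%). Over all 33 cells with Fcer1g, no CD8 UMI was found in 13 of the 22 with 2 or more Fcer1g UMIs (59.1%, 36.4 to 79.3%) and in 2 of the 11 with 1 (18.2%, 2.28 to 51.8%). Ikzf2 had 15 UMIs in 8 of the 18 cells and 1 UMI in matched cells. Ifitm1 had 524 CPM in the 18 cells and 48.6 CPM in matched cells (log2 ratio 3.39), Lgals3 had 398 and 58.4 CPM (log2 ratio 2.74), and Cd8a had 175 and 381 CPM (log2 ratio -1.12).

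The 9 cells with Gzmc as the only gene had Cd8a near the matched level. Cd8a had 446 CPM in these cells and 402 CPM in matched cells (log2 ratio 0.15), and 1 of the 9 had no CD8 UMI (11.1%, 0.281 to 48.2%), against 4 of 45 (8.89%). Klrd1 had 245 CPM in the 9 cells and 62.5 CPM in matched cells (log2 ratio 1.91). Tyrobp was the only gene in 4 cells, of which 1 had no CD8 UMI, and that cell had no CD3 UMI either. The 9 NK cell markers had 22 UMIs in these 4 cells (857 CPM, up to 18 per cell). Their matched cells had 6 UMIs (46.7 CPM, up to 2 per cell).

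Cell by cell, the 16 cells with 2 or more genes were not alike. A cell of 10055 UMIs with all 4 genes had 8 of Fcer1g, 4 of Tyrobp, 1 of Klre1 and 8 of Gzmc, with 2 UMIs each of Cd8a, Cd8b1 and Cd3d and 15 of Gzma. A second cell with all 4 genes, at 5344 UMIs, had 7 of Fcer1g, 1 of Tyrobp, 2 of Klre1 and 5 of Gzmc, with 0 of Cd8a, 1 of Cd8b1, 2 of Cd3d and 21 of Ifitm1. A cell of 5162 UMIs had 7 of Fcer1g, 3 of Tyrobp and 11 of Gzmc, with 0 of Cd8a, 5 of Cd3d and 44 of Ifitm1. A cell of 8082 UMIs had 3 of Fcer1g and 2 of Klre1 and no CD8 UMI, with 9 of Cd3d, 7 of Cd3g and 13 of Ifitm1. Gzma UMIs were in 3 of the 16 cells, at 15, 10 and 2 UMIs.

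Markers of other cell types were counted in the same cells. Of 13 macrophage or monocyte markers, 1 had a UMI in the 80 member cells (1 UMI of Apoe), against 3 markers and 8 UMIs in 400 matched cells, and Lyz2, Csf1r and Cd68 were at 0. All 10 neutrophil markers were at 0 in both sets. Of 9 mast cell or basophil markers, Cpa3 and Kit had 1 UMI each in member cells, and Fcer1a and Ms4a2, the other Fc receptor chains of mast cells, were at 0. Of 10 B or plasma cell markers, 4 had 25 UMIs in member cells (52.7 CPM, 0 to 6 per cell), against 113 UMIs in matched cells (47.9 CPM, 0 to 28 per cell), and Cd79a and Ms4a1 were at 0 in member cells. In the 16 cells with 2 or more genes, the B or plasma cell markers had 10 UMIs (105 CPM, up to 6 per cell), against 21 UMIs in their matched cells (44.2 CPM, up to 2 per cell). In the 8 such TGR cells they had 14 UMIs (216 CPM, up to 13 per cell), against 15 UMIs in matched TGR cells (46.4 CPM, up to 4 per cell). Macrophage or monocyte markers were at 0 in the 16 and in the 8 cells. The part of these markers in the results was not tested.

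Of 9 NK cell markers, 6 had 107 UMIs in member cells (225 CPM, 0 to 18 per cell), against 3 with 164 UMIs in matched cells (69.5 CPM, 0 to 5 per cell), and Gzma, which is also a granule gene, gave 43 of the 107. The NK cell markers of the 16 cells with 2 or more genes had 49 UMIs (515 CPM, up to 18 per cell), against 32 UMIs in matched cells (67.4 CPM, up to 2 per cell). In the 8 such TGR cells they had 70 UMIs (1081 CPM, up to 59 per cell), against 18 UMIs in matched TGR cells (55.7 CPM, up to 3 per cell). The part of the NK cell markers in the results was not tested. Ncr1, Klra9 and Khdc1a were at 0 in the control member cells, but Ncr1 was detected in the 8 TGR cells. Of 5 CD8 T cell markers measured (Cd8a, Cd8b1, Cd3d, Cd3e and Cd3g), all 5 had UMIs. A UMI of any was in 78 of the 80 member cells and in 400 of the 400 matched cells. Without the CD3 chains, a CD8 UMI was in 57 of the 80 and in 377 of the 400. Of 4 CD4 T cell markers, Zbtb7b had 1 UMI in member cells. Of 6 innate lymphoid markers, 3 had 21 UMIs in member cells (44.2 CPM), against 107 UMIs in matched cells (45.3 CPM). The constant genes of the T cell receptor chains were not analysed here, so alpha-beta and gamma-delta receptors cannot be told apart.

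The TGR library gave a second set of cells with no cell in common: of 11 barcodes found in both libraries, 0 belonged to a control member cell whose barcode was kept in TGR. In its 74 cells with a gene of the rule, 14 had no CD8 UMI (18.9%, 10.8 to 29.7%), against 10 of 370 matched TGR cells (2.70%). In its 8 cells with 2 or more genes, 4 had none (50%, 15.7 to 84.3%), against 3 of 40 (7.50%). Cd8a had 2 UMIs in the 8 cells and 76 in matched TGR cells (log2 ratio -2.83), and Lgals3 had 1899 and 223 CPM (log2 ratio 3.08). Ifitm1 had 7 UMIs against 0, a ratio of 11.6 against a floor of 3 UMIs. Of the 7, 1 cell held 5 and a second cell the other 2. In these 8 cells 2 of the 3 CD3 chains were lower, Cd3e at 30.9 CPM against 130 CPM in matched cells (log2 ratio -1.99) and Cd3g at 247 CPM against 452 CPM (log2 ratio -0.86). Cd3d had 494 CPM against 721 CPM (log2 ratio -0.54), which was not past the fold. None of the 8 cells had more than 1 UMI of Cd3e. A cell with 14476 of the 64781 UMIs of the 8 cells had 0 UMIs of all 3 chains. That cell also held 55 Gzma UMIs, and the CD3 levels without it were not computed.

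In the 74 TGR cells 114 of 3869 genes scored were higher (2.95%) and 75 lower (1.94%), and in the 8 TGR cells 243 of 4568 were higher (5.32%) and 102 lower (2.23%). Of the 243 genes, 75 had most of their UMIs in a single cell, against 16 of the 205 genes higher in the 16 control cells.

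Of the 205 genes higher in the 16 control cells, 137 were scored in the 8 TGR cells, and 93 of these had a ratio above 1 (67.9%, against 47.7% of the 3625 genes scored in both). There, 32 were past the fold in the same direction (23.4%, against 4.69% of the genes scored in both) and 3 in the opposite one. A gene rare in matched TGR cells was scored only if it reached 25 CPM in the 8 cells. The shares of the higher genes are thus in part set by the filter, and they are a description. Lat2, Ctsd, Id2, Ccr2, Ifitm1, Ccl5, Gzma and Gzmb were among the 32. Of the 93 lower genes, 88 were scored in TGR, 69 had a ratio below 1 (78.4%, against 52.3%) and 23 were past the fold (26.1%, against 2.81%), among them Cd8a, Cd8b1, Cd27, Cd2, Lat, Tcf7 and Ccr7. For the 64 control cells with 1 gene, 94 of 4082 genes scored were higher (2.3%) and 85 lower (2.08%), and in the 66 TGR cells with 1 gene 105 of 3817 were higher (2.75%) and 67 lower (1.76%). Of the 94 higher genes, 53 were scored in TGR, and 34 had a ratio above 1 (64.2%, against 50.7% of the 3419 genes scored in both). Past the fold were 7 in the same direction (13.2%, against 2.14%) and 1 in the opposite one. The same limit of scoring holds for these shares. Of the 85 lower genes, 76 were scored in TGR, and 39 had a ratio below 1 (51.3%, against 49.3% of all genes scored in both) and 0 were past the fold in the same direction and 1 in the opposite one. Of the 8 TGR cells, 1 held all 55 Gzma UMIs and 52 of the 57 Gzmc UMIs, and it had no CD3 or CD8 UMI.

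**Figure D5:**
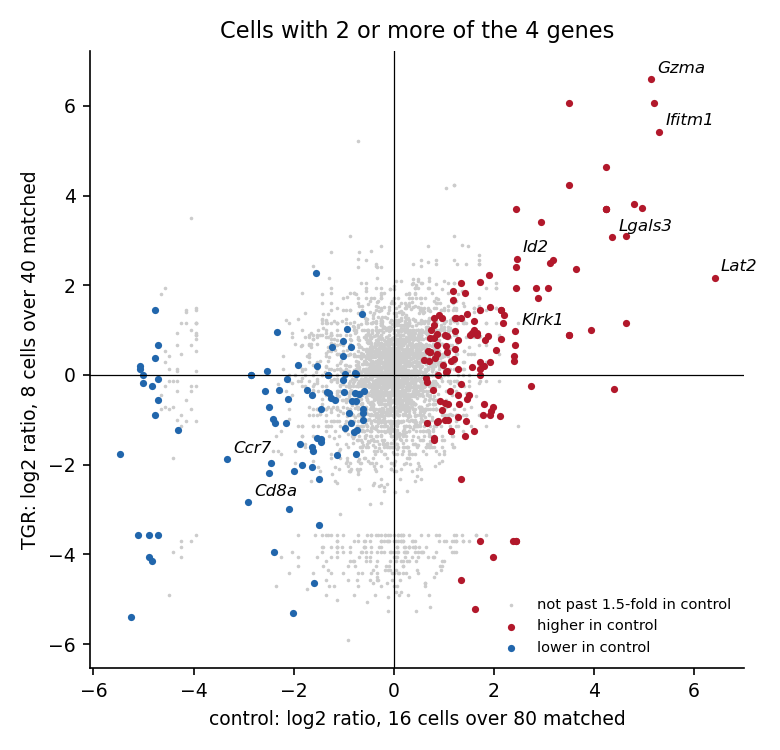
Log2 ratio of CPM in cells with 2 or more of the 4 genes over their matched cells, in TGR (vertical axis, 8 over 40 cells) and control (horizontal axis, 16 over 80 cells), for genes scored in both. Coloured points are genes past 1.5-fold in control. Of the higher genes, 93 of 137 lie above 0 in TGR, and 69 of 88 lower genes lie below 0. A gene rare in matched TGR cells is shown only if it reached 25 CPM in the 8 cells.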

How the data were processed

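Single-cell RNA sequencing was done with the 10x Chromium platform (v2 chemistry), with 1 library per condition, per the labels' protocols. The deposited matrices hold raw UMI counts per gene and barcode; the submitters' processing notes name Cell Ranger 2.2, Seurat 3 and the mm10 build. Deposited barcodes numbered 2548 (TGR) and 3336 (control), with 2546 and 3127 kept (19696068 and 14730128 UMIs). Doublets were not called and were left in.

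Cells with a gene of the rule were matched without replacement on UMIs outside the 4 genes, 5 cells each. Counts were summed per set, 0.5 UMI was added for log2 ratios, and exact conditional intervals (95%) were taken for ratios, Poisson for sums and Clopper-Pearson for shares, with scipy 1.17.1 in Python 3.11.15. The summing and scoring were tested on simulated data. Alternative scalings used edgeR 4.0.16 (TMM) and DESeq2 1.42.0 (size factors) in R 4.3.3. Promoters came from RefSeq (GRCm38.p6). The members, the 16 gene lists and the rules were chosen with earlier results of these data known.

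Named genes were the 12 highest and 12 lowest ratios of genes that reached 50 CPM in a set with an interval apart from 1, detected members of the T cell receptor and NK receptor lists, and from each other list the 2 largest changes and the 2 most abundant genes. Genes named beyond this, the division by UMIs of the 4 genes and the cells described one by one were chosen after their values were seen. Some genes of the fixed lists are not reported here.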

Additional observations from a re-analysis of the deposited data

How the results depend on the processing

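No paired analysis was possible because there was 1 library per condition and the comparisons are between cells of a library. The cells rest on few UMIs: 52 of the 80 member cells had 1, so the set changes with depth and threshold. Among named genes called in a comparison, none changed direction under the alternatives run. Counted per gene, comparison and alternative, 148 calls were lost, 39 were gained and 2587 entries were unchanged. Thinned to 1500 UMIs per cell, the share of cells with a gene of the rule was 0.864% in TGR and 1.42% in control. With 2 or more UMIs required, 222 genes were higher in the remaining 28 control cells, and 60.7% of the cells had no CD8 UMI. For the 80 control cells, 214 genes were higher and 140 lower with no filter on low values, and 19 and 17 with at least 100 CPM. After thinning 57 were lower, and 40 of the 122 higher and 9 of the 91 lower genes were called again. For the 16 control cells, 188 were lower with TMM factors and 159 with DESeq2 size factors, which shifted the median log2 ratio by -0.19 and -0.15, so that 42.2% and 49.5% of the called genes were higher in place of 68.8%. There, 90 were higher with at least 100 CPM, 87 with 1 matched cell each, and 84 higher and 24 lower after thinning. Of the 205 higher and 93 lower genes of the 16 cells, 44 and 14 were called again after thinning. For the 74 TGR cells, 115 were lower with totals without ribosomal protein and mt- genes, 246 were higher and 140 lower with no filter, and 10 and 3 with at least 100 CPM. TMM factors turned the TGR split to 50% higher, in place of 60.3%. The causes were not tested, apart from the filters and thinning, which change how many genes or UMIs are scored. With 1 matched cell each, Cd8b1 (log2 ratio -0.41) and Lat (-0.49) were short of the fold in the 80 cells; Cd8a ran from -2.74 to -0.62 over the alternatives.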

Other observations

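Of the 209 control barcodes left out by the filters, 6 had a UMI of the 4 genes (2.87%, exact binomial interval 1.06 to 6.14%). For the 16 control cells with 2 or more genes, further genes with large ratios were chosen after their values were seen. Of all genes scored there, 4.54% were higher. S100a6 was at 1672 CPM in the 16 cells and 470 CPM in matched cells (log2 ratio 1.83), S100a11 at 473 and 103 CPM (log2 ratio 2.18), and Lgals1, which encodes galectin-1, at 4605 and 2269 CPM (log2 ratio 1.02). Tubb6, a beta-tubulin, had 9 UMIs in 8 of the 16 cells and 1 UMI in 80 matched cells. Tnfrsf9, the costimulatory receptor 4-1BB, had 16 UMIs in 7 of the 16 cells and 3 UMIs in matched cells (log2 ratio 4.40). Spp1, the secreted protein osteopontin, had 6 UMIs in 3 of the 16 cells and 0 in matched cells, a ratio of 9.98 against a floor of 3 UMIs. It had 11 UMIs in 1 of the 8 TGR cells against 0. Tubb6, Tnfrsf9 and Spp1 reached 25 CPM in the 16 cells alone, so their ratios are a description.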
